A study of Homo sapiens with 12 samples.

Results

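Genes of interferon-induced families and transcription factors of the IRF and STAT families were examined after exposure to 3 hepatoprotective agents. The cells were labelled HepG2, a line from a human hepatocellular carcinoma. The genes were taken by name. Every probe was used whose platform symbol belonged to the IFIT, IFITM, IFI, OAS, ISG, GBP, IRF or STAT families by a name pattern, or was MX1, MX2, IFIH1, DDX58 or RSAD2. This gave 43 of 27561 probes and 38 of 13881 genes with a symbol. By name 14 of them were factors (8 IRF and 6 STAT genes) and 24 induced genes and sensors. Whether interferon induces or acts through each of them in these cells was not tested. DDX58 and IFIT1L carry the current names RIGI and IFIT1B, used below. No probe bore the symbol IFIT2, IFI27, IFI35, OAS3, GBP2, MX2 or RSAD2, and these genes were not analysed here.

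Total RNA was labelled with Cy5 and hybridized to one-colour arrays, 3 per group. The groups were cells given glycyrrhizin, a saponin of liquorice root, silymarin, a flavonolignan mixture from milk thistle, or ursodeoxycholic acid, a hydrophilic bile acid, each at 25 µM for a time not stated, and mock-treated control cells. All groups were grown in DMEM with fetal bovine serum, and the labels name no interferon and no virus in any of them. The labels do not say if replicate arrays stand for separate cultures, so p-values measure the spread between arrays, which may be technical.

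Interferons are secreted when sensors such as RIGI and IFIH1 detect viral RNA and IRF3 and IRF7 switch on interferon genes. Type I interferons act through IFNAR1 and IFNAR2 and the kinases JAK1 and TYK2 to assemble a complex that holds STAT2 and IRF9 and binds the interferon-stimulated response element (ISRE) of target promoters. Interferon gamma acts through the gamma-activated site (GAS) of its target promoters and induces IRF1. Hepatocytes respond strongly to these signals, and many of the induced proteins block replication of viruses.

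The promoters are shown because they hold the elements through which interferons act on many of these genes. RefSeq promoter windows (GRCh38.p14, 250 bases before to 50 after a transcription start, read on the gene's strand) were found for 32 of the 38 genes. For 26 the start used lay within 50 bases of the outer start of the RefSeq gene, and for IFI16, IRF5, IRF8, ISG20, STAT5B and STAT6 it lay 895 to 11979 bases inside the gene. The ISRE core was searched on both strands as the letters GAAA, any 2 bases, and GAAA again. It was present in 14 of 32 promoters (43.8%), against 1255 of 35116 promoters of all genes (3.57%). Those 14 were GBP1, GBP3, GBP4, IFI44, IFI44L, IFI6, IFIH1, IFIT1, IFIT3, IFITM1, IFITM3, ISG15, ISG20 and MX1, and none was an IRF or STAT gene. The GAS, searched as TTCNNNGAA, was present in 5 of 32 promoters (15.6%, against 7.66% of all), those of GBP3, IFITM1, IRF1, IRF9 and OAS1. The variant with 4 bases between TTC and GAA, which STAT6 is known to bind, was present in 4 (12.5%, against 6.44%). Motifs were counted separately and matches may overlap. A match describes letters and is no evidence of binding. The whole promoter of IFIT1, which holds 2 ISRE cores, and the window of STAT6, which starts from a site 1073 bases inside the gene and holds none of the 3 motifs, are given first, followed by windows of 30 bases around the ISRE core found nearest the 5′ end in 8 other genes. Capitals mark ISRE cores on either strand.
IFIT1, chr10:89392373-89392672, plus strand: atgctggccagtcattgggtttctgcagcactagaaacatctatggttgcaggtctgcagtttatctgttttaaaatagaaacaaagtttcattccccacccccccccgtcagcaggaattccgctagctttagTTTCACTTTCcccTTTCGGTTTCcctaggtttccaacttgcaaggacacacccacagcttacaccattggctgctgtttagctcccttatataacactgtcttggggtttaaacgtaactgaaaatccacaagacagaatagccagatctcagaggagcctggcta
STAT6, chr12:57110240-57110539, minus strand: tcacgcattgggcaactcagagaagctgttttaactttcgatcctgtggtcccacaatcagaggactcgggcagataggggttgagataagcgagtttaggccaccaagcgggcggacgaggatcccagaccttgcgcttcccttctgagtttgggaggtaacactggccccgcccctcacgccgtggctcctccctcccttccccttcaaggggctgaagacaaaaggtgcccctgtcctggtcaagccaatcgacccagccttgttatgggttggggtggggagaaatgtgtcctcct
IFIT3, chr10:89327831-89327860, plus strand: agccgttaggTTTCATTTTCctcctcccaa
ISG15, chr1:1013374-1013403, plus strand: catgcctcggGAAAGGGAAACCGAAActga
MX1, chr21:41420559-41420588, plus strand: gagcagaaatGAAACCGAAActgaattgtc
IFIH1, chr2:162318824-162318853, minus strand: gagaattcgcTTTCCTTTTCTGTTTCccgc
IFI44L, chr1:78620274-78620303, plus strand: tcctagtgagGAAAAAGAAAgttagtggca
IFITM1, chr11:313990-314019, plus strand: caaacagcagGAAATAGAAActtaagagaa
GBP4, chr1:89198927-89198956, minus strand: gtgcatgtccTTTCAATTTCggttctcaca
ISG20, chr15:88638937-88638966, plus strand: taacaaactaGAAACTGAAAcagggtcggg

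The deposited values were intensities on a linear scale, already brought to 1 distribution, with a median of 86.1 over all probes. No detection call came with them, so for a dim probe signal and background cannot be separated, and precision is limited by having 3 arrays per group. The median correlation across probes was 0.934 between arrays within a group and 0.933 between groups. Of 14 hepatocyte markers 11 were measured, with mean log2 intensities of 3.55 (APOH) to 8.89 (APOB). Their median was 6.79, close to 6.7 for all genes at their brightest probes, so these markers did not stand above the typical gene. The other 3 were not analysed here. The median was 6.17 over 8 measured leukocyte markers, with CD3D at 11.35, and 8.86 over 6 measured neuroblast markers, with tyrosine hydroxylase TH at 12.49. Whether these bright probes read their named transcripts was not tested.

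Levels below are log2 intensities of the gene's brightest probe. Probes differ in how well they hybridize, so levels of different genes are given as a description and not as an order of transcript amounts. The 38 genes had mean levels of 4.42 to 12.8, with a median of 6.56, against 6.7 for all genes. Above the median gene lay 9 of 14 factors and 8 of 24 induced genes and sensors. The dimmest 25% of all genes held 9 of the 38. A gene passed a comparison when its p in limma, adjusted over all 13881 genes, was under 0.05.

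The signal of the IRF factors spanned nearly this whole range. IRF1, the activator induced by interferon gamma, averaged 12.8, and IRF2, its antagonist on many promoters, 11.3. IRF5, a factor of Toll-like receptor signalling, averaged 9.81. IRF4 (6.75), a lymphoid factor, and IRF9 (6.66), the DNA-binding partner of STAT2, were near the median gene. IRF3 (5.81), IRF7 (5.48) and the myeloid factor IRF8 (4.53) were dimmer. Among the STAT genes, STAT2 averaged 9.35, STAT3, the effector of interleukin 6, 9.17, STAT5B 8.98, STAT4 8.68, STAT6 6.81 and STAT5A 6.45.

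Several well-known induced effectors were dimmer than the median gene. IFIT1 averaged 5.12, ISG15 5.03, MX1 5.71, OAS2 5.26, IFI44 4.51 and IFI16 4.66. IFIT3 (6.72), OASL (6.6), ISG20 (6.51), IFI6 (6.44), IFITM3 (6.39) and IFITM1 (6.38) were close to the median gene. The brightest of the 24 were GBP4 (9.04), IFI44L (7.98), the RNA sensor IFIH1 (7.6), OAS1 (7.44), GBP6 (7.22) and RIGI (7.14). The dimmest included the guanylate-binding proteins GBP5 (4.42) and GBP3 (4.54), large GTPases that act on pathogen vacuoles.

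**Figure D1:**
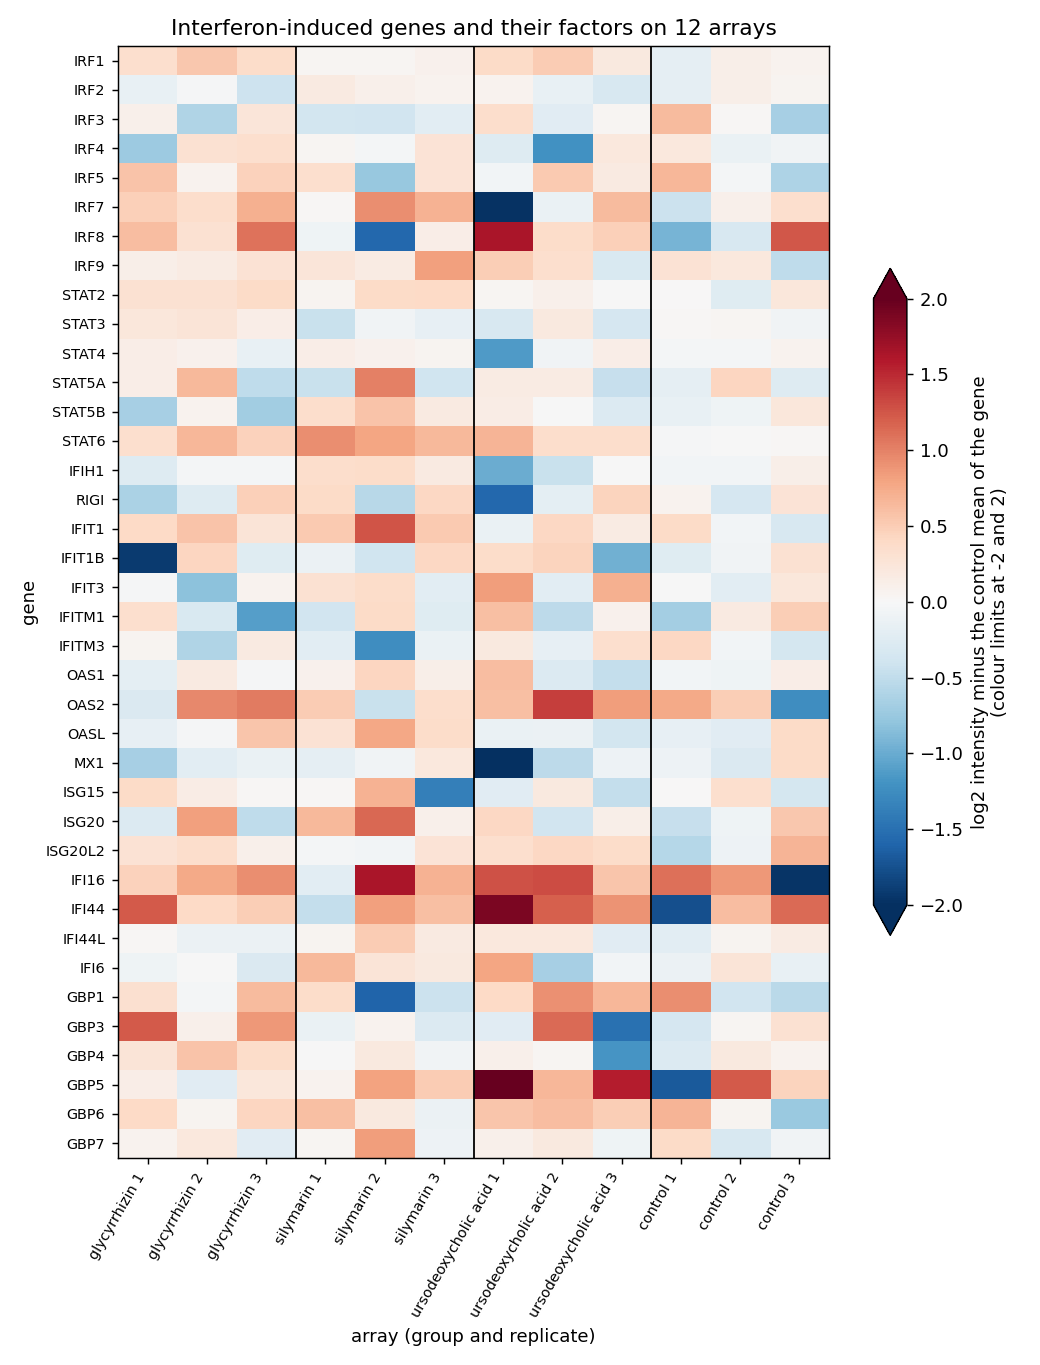
Log2 intensity of each of 38 genes (rows) on each of 12 arrays (columns) minus the gene's mean over the 3 control arrays, as colour. STAT6 is above the control mean on all 9 treated arrays, and strong colours fall mainly on dim genes such as GBP5, IFI16 and IFI44 and on single arrays.

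Highest and lowest values of the set were spread unevenly over the arrays. Of the 38 genes 11 had their highest value on silymarin replicate 2 and 4 their lowest, and 7 had their highest and 5 their lowest on ursodeoxycholic acid replicate 1. These arrays also had the highest medians over all genes, at 0.07 and 0.114 above the gene's own mean. Where all other genes had their extremes was not counted, so the unevenness is not shown to be particular to this set. Among the control arrays, which enter all 3 comparisons with control, replicate 1 held 5 highest and 5 lowest values and replicate 3 held 2 highest and 6 lowest. Glycyrrhizin replicate 3 and ursodeoxycholic acid replicate 3 held 5 lowest values each. IRF7 lay at 3.37, MX1 at 3.92 and RIGI at 5.69 on ursodeoxycholic acid replicate 1, while GBP5 lay at 6.9 and IFI44 at 5.81 there. The other 2 arrays of that group read IRF7 at 5.21 and 5.97. The residual SD over arrays of a group ran from 0.13 for IRF1 to 0.995 for IFI16 and had a median of 0.42 over the 38 genes, against 0.43 over all.

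Glycyrrhizin against control. None of the 38 genes passed the test with glycyrrhizin. The values nearest to it belonged to factors, STAT6, IRF1 and STAT2, each higher with glycyrrhizin by at most 0.49 log2 units. STAT5B followed in the other direction, at −0.43 (SE 0.25, unadjusted p = 0.117 in limma, against 0.116 for STAT2). The antiviral effectors did not move in 1 direction, with IFIT1 and ISG15 above control and IFIT3, IFITM1 and MX1 below it. In limma with Benjamini-Hochberg adjustment 0 of 38 genes passed, against 0% of all genes, and 2 lay at an unadjusted p under 0.05, against 5.37% of all genes. Of the 14 factors 10 were measured higher (median 0.2), and of the 24 induced genes and sensors 14 (median 0.03). Over the 38, 24 were higher and 14 lower, with a median log2 difference of 0.1, against 0.02 over all genes, of which 52.5% were higher.

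STAT6, the factor of interleukin 4 and interleukin 13 signalling, lay at 6.71, 7.05 and 6.83 with glycyrrhizin, 7.3, 7.16 and 7.02 with silymarin and 7.06, 6.72 and 6.73 with ursodeoxycholic acid, against 6.36, 6.37 and 6.4 in control. The control arrays were all below the 9 treated arrays and close to each other (SD 0.02). Against control STAT6 differed by 0.49 with glycyrrhizin (SE 0.19, adjusted p = 0.835), by 0.79 with silymarin (SE 0.19, unadjusted p = 0.00172, adjusted p = 0.825) and by 0.46 with ursodeoxycholic acid (SE 0.19, adjusted p = 0.925). It was the 1 gene of 38 whose arrays lay above all control arrays with each agent, against 50 of all 13881 genes (0.36%). These 3 comparisons share the control arrays, so a low control reading would enter all of them.

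IRF1 lay at 12.93, 13.14 and 12.96 with glycyrrhizin, 12.63, 12.63 and 12.69 with silymarin and 12.98, 13.11 and 12.78 with ursodeoxycholic acid, against 12.41, 12.71 and 12.66 in control. With glycyrrhizin and with ursodeoxycholic acid all arrays were above all control arrays, while silymarin overlapped control. The differences were 0.42 with glycyrrhizin (95% interval 0.01 to 0.82, adjusted p = 0.909), 0.06 with silymarin (−0.35 to 0.46) and 0.36 with ursodeoxycholic acid (−0.04 to 0.77). They rest on the brighter of 2 probes. The other IRF1 probe, at a mean of 5.08, differed by −0.16 (SE 0.49), 0.85 (SE 0.49) and 0.21 (SE 0.49) in the same order, and with both probes averaged the glycyrrhizin difference was 0.13. STAT2, the partner of IRF9, lay at 9.49, 9.48 and 9.57 with glycyrrhizin, against 9.19, 8.95 and 9.41 in control, a difference of 0.33 (SE 0.19, adjusted p = 0.948), or 0.21 without control replicate 2.

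In glycyrrhizin-treated cells 6 genes had all 3 arrays above all control arrays, against 6.98% of all genes, and 0 had all arrays below, against 5.76%. The 6 were GBP4, IRF1, IRF7, STAT2, STAT3 and STAT6. GBP4 lay at 9.27, 9.58 and 9.38 with glycyrrhizin, against 8.75, 9.21 and 9.09 in control (difference 0.39, SE 0.32), or 0.26 without control replicate 1. IRF7, which amplifies interferon production, lay at 5.82, 5.69 and 6.05 with glycyrrhizin, against 4.91, 5.45 and 5.67 in control (0.51, SE 0.55), or 0.29 without control replicate 1. STAT3 lay at 9.44, 9.46 and 9.34, against 9.24, 9.25 and 9.14 in control (0.2, SE 0.21). For each of these the gap between the groups was small beside the SE of the difference. All 6 guanylate-binding protein genes were measured higher with glycyrrhizin, by 0.02 (GBP7) to 0.73 (GBP3), without passing. Under all alternatives GBP3 and GBP4 alone of the 6 kept that sign: GBP5 came to −0.8 without control replicate 1, GBP7 to −0.14 without control replicate 2 and GBP6 to −0.08 without control replicate 3, and GBP1 turned in another alternative. Leukocytes express many of these genes, and their 8 measured markers were also all higher with glycyrrhizin, against 52.5% of all genes. These differences ran from 0.002 (MS4A1) to 0.59 (SPI1). The list means were 6.86 to 7.49 over glycyrrhizin arrays and 6.54 to 7.27 over control arrays. With ursodeoxycholic acid 7 of these 8 markers were higher, and with silymarin 3. None of the 8 passed, and their part in the result was not tested. The labels name HepG2 as the cells, and whether these marker probes read their named transcripts was not tested. In RNA from whole cultures more cells of a type and more RNA per cell cannot be told apart.

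Silymarin against control. Of the 38 genes, more were measured higher with silymarin than lower, and none passed. The lowest p-values belonged to STAT6 and IFIT1. All 3 OAS genes and all 4 IFI genes were above control, and both IFITM genes, which encode membrane proteins that hinder virus entry, were below it. Of these IFI44L, IFI6, OAS1, OASL and IFITM3 kept their sign under all alternatives. IFI44 came to −0.56 without control replicate 1, IFI16 to −0.27 and OAS2 to −0.48 without control replicate 3, and IFITM1 to 0.17 without control replicate 3. Of the 14 factors 10 were higher (median 0.09), and of the 24 induced genes and sensors 17 (median 0.18). Over the 38, 27 were higher and 11 lower, with a median log2 difference of 0.13, against 0.02 over all genes, of which 52.3% were higher. In limma 0 of 38 genes passed, against 0% of all genes, with 2 at an unadjusted p under 0.05, against 4.89%. All 3 arrays lay above all control arrays for 3 genes (IFIH1, IFIT1 and STAT6), against 6.21% of all genes, and below for 0, against 4.62%.

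IFIT1, which binds the ends of viral RNA, lay at 5.19, 5.37 and 5.04 with glycyrrhizin, 5.32, 6.05 and 5.32 with silymarin and 4.66, 5.21 and 4.95 with ursodeoxycholic acid, against 5.18, 4.73 and 4.46 in control. Silymarin arrays were all above control, with replicate 2 highest, whereas the ursodeoxycholic acid arrays overlapped control. The difference with silymarin was 0.77 (SE 0.28, 95% interval 0.17 to 1.38), 1.71-fold, with an adjusted p of 0.946. It was 0.41 with glycyrrhizin (SE 0.28), or 0.25 without control replicate 3, and 0.15 with ursodeoxycholic acid (SE 0.28), or −0.015 without control replicate 3. The related IFIT3 did not share the order, at 6.61, 5.81 and 6.71 with glycyrrhizin, 6.94, 6.99 and 6.42 with silymarin and 7.46, 6.42 and 7.35 with ursodeoxycholic acid, against 6.63, 6.42 and 6.85 in control. Every treated group overlapped control for IFIT3, whose difference with silymarin was 0.15 (SE 0.34).

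OASL, an oligoadenylate synthetase relative that strengthens RIGI signalling, lay at 6.34, 6.48 and 7.05 with glycyrrhizin, 6.79, 7.29 and 6.87 with silymarin and 6.37, 6.39 and 6.14 with ursodeoxycholic acid, against 6.34, 6.28 and 6.89 in control. Its silymarin arrays overlapped control replicate 3, and the difference was 0.48 (SE 0.26, adjusted p = 0.977). OAS1, which makes the oligoadenylates that activate RNase L, lay at 7.21, 7.58 and 7.38 with glycyrrhizin, 7.48, 7.84 and 7.51 with silymarin and 8.02, 7.12 and 6.93 with ursodeoxycholic acid, against 7.35, 7.32 and 7.54 in control. All treated groups overlapped control, and the difference with silymarin was 0.21 (SE 0.28), or 0.1 without silymarin replicate 2.

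The ubiquitin-like modifier ISG15 lay at 5.47, 5.23 and 5.1 with glycyrrhizin, 5.1, 5.77 and 3.72 with silymarin and 4.85, 5.27 and 4.6 with ursodeoxycholic acid, against 5.09, 5.42 and 4.73 in control. Its silymarin arrays were the most spread (SD 1.05), and the difference with silymarin was −0.22 (SE 0.44), or 0.36 without silymarin replicate 3. IFITM1 lay at 6.82, 6.17 and 5.37 with glycyrrhizin, 6.09, 6.86 and 6.24 with silymarin and 7.07, 5.95 and 6.56 with ursodeoxycholic acid, against 5.8, 6.66 and 6.97 in control. Its groups overlapped throughout, with differences of −0.36, −0.08 and 0.05 with glycyrrhizin, silymarin and ursodeoxycholic acid, each with an SE of 0.44. IRF9 lay at 6.58, 6.63 and 6.75 with glycyrrhizin, 6.71, 6.63 and 7.28 with silymarin and 6.95, 6.8 and 6.16 with ursodeoxycholic acid, against 6.75, 6.68 and 5.95 in control. Control replicate 3 was the lowest array, and the differences were 0.19, 0.41 and 0.17 in the same order (SE 0.3), or −0.06, 0.16 and −0.08 without it.

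**Figure D2:**
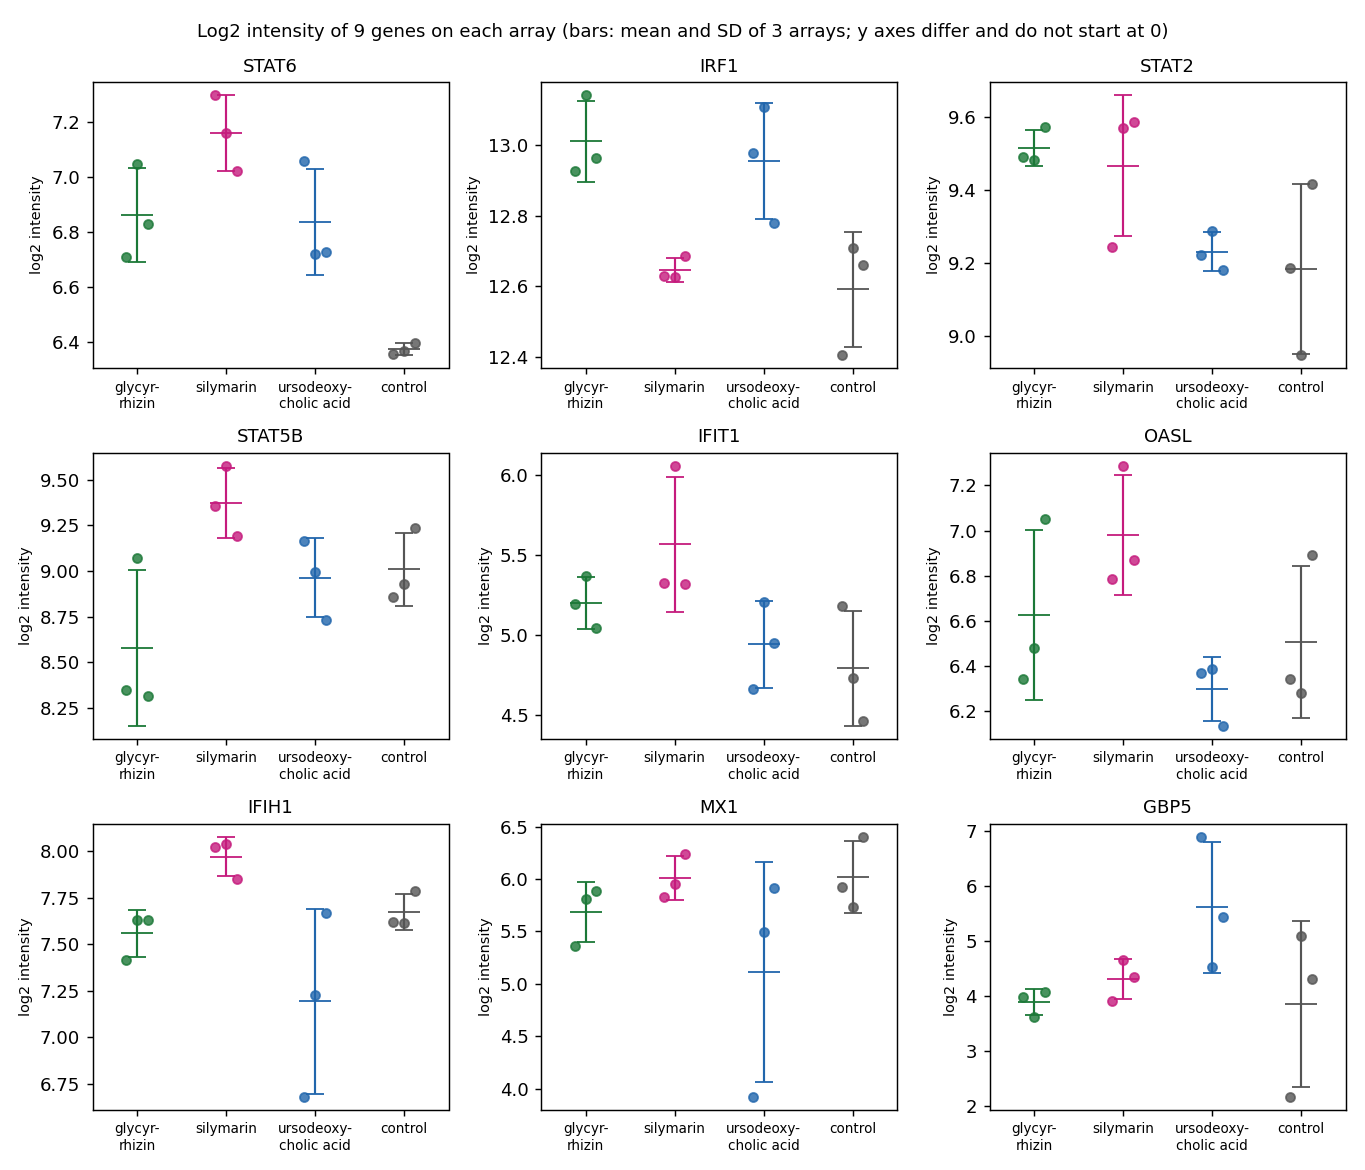
Log2 intensity of 9 genes (panels) on the 3 arrays (points) of each group, with the mean and SD as bars; the y axes differ between panels and do not start at 0. STAT6 shows control arrays at 6.36 to 6.4 below every treated array, while GBP5 and MX1 show wide ursodeoxycholic acid groups.

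Ursodeoxycholic acid against control. The largest differences of the set were seen here, on dim genes with wide groups, and none passed. GBP5 and IFI44 were measured higher, and the antiviral GTPase MX1 and the sensor IFIH1 lower. Of the 14 factors 7 were higher (median 0.002), and of the 24 induced genes and sensors 15 (median 0.06). Over the 38, 22 were higher and 16 lower, with a median log2 difference of 0.05, against 0.02 over all genes, of which 52.3% were higher. In limma 0 of 38 genes passed, against 0% of all genes, with 2 at an unadjusted p under 0.05, against 5.29%. All 3 arrays lay above all control arrays for 2 genes (IRF1 and STAT6), against 5.3% of all genes, and below for 0, against 4.21%.

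GBP5 lay at 3.98, 3.62 and 4.08 with glycyrrhizin, 3.92, 4.66 and 4.36 with silymarin and 6.9, 4.52 and 5.43 with ursodeoxycholic acid, against 2.17, 5.09 and 4.31 in control. Control replicate 1 was the lowest array and ursodeoxycholic acid replicate 1 the highest, and the groups overlapped. The difference with ursodeoxycholic acid was 1.76 (SE 0.71, 95% interval 0.19 to 3.33, adjusted p = 0.925). It was 0.92 without control replicate 1 and 1.12 without ursodeoxycholic acid replicate 1. MX1 lay at 5.36, 5.81 and 5.89 with glycyrrhizin, 5.83, 5.96 and 6.24 with silymarin and 3.92, 5.5 and 5.92 with ursodeoxycholic acid, against 5.92, 5.74 and 6.4 in control, a difference of −0.91 with ursodeoxycholic acid (SE 0.44, adjusted p = 0.925) that came to −0.31 without ursodeoxycholic acid replicate 1. IFI44 lay at 5.81, 5.12 and 4.81 with ursodeoxycholic acid, against 2.17, 4.54 and 5.05 in control (1.32, SE 0.66), or 0.45 without control replicate 1. IFI16, a sensor of DNA, lay at 5.32, 5.35 and 4.6, against 5.14, 4.9 and 2.09 in control (1.05, SE 0.72), or 0.07 without control replicate 3. For GBP5, IFI44 and IFI16 alike, 1 control array lay near 2 log2 units, and at least 1 other control array lay within the range of the ursodeoxycholic acid arrays.

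The sensors RIGI and IFIH1 differed by −0.44 (SE 0.49) and −0.48 (SE 0.25) with ursodeoxycholic acid, and by 0.13 and −0.22 without ursodeoxycholic acid replicate 1. RIGI lay at 5.69, 7.07 and 7.71 with ursodeoxycholic acid, against 7.33, 6.93 and 7.53 in control, and its lowest value was on replicate 1, as for MX1 and IRF7. IFIH1 lay at 6.68, 7.23 and 7.67, against 7.62, 7.61 and 7.79 in control, with replicate 1 again lowest. The other STAT and IRF factors stayed within 0.5 of control, apart from IRF8, at 5.92, 4.65 and 4.76 with ursodeoxycholic acid, against 3.36, 3.97 and 5.53 in control (0.82, SE 0.61). That difference was 0.36 without control replicate 1 and 0.42 without ursodeoxycholic acid replicate 1.

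**Figure D3:**
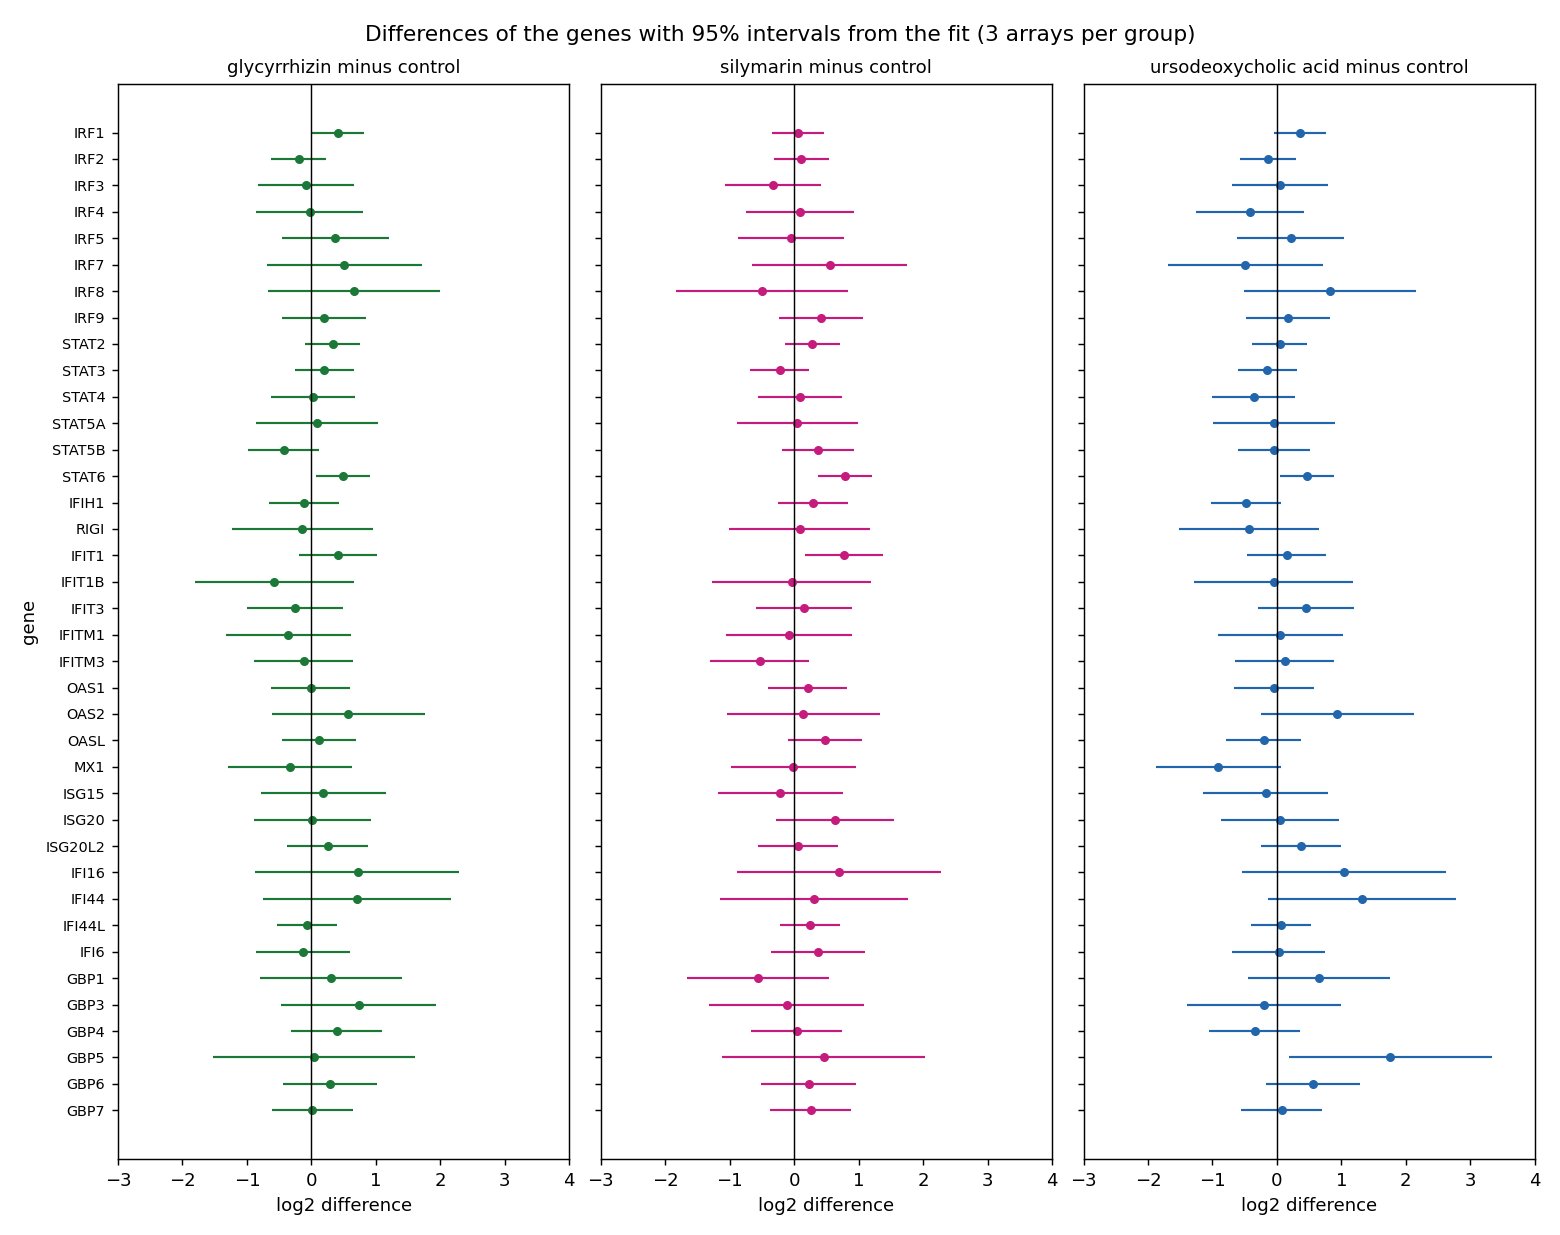
Log2 difference from control of each of 38 genes (rows) with its 95% interval from the limma fit, in 1 panel per agent. The interval excludes 0 for STAT6 with each agent, IRF1 with glycyrrhizin, IFIT1 with silymarin and GBP5 with ursodeoxycholic acid; these intervals are not adjusted for the number of genes, and none of the 38 passed.

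The agents against each other. None of the 38 genes differed between agents beyond the threshold. Glycyrrhizin and silymarin differed in 7 genes of the whole array (0.0504%), none among the 38, silymarin and ursodeoxycholic acid in 4 (0.0288%), again with 0 of 38, and glycyrrhizin and ursodeoxycholic acid in 0 (0%). At an unadjusted p under 0.05 stood 1 of the 38 for glycyrrhizin against silymarin (9.31% of all genes), 2 for glycyrrhizin against ursodeoxycholic acid (4.68%) and 4 for silymarin against ursodeoxycholic acid (8.04%). For glycyrrhizin against silymarin 17 of 38 were higher (51.3% of all genes), with 5 genes whose arrays were all above (9.07%) and 5 all below (9.16%). For glycyrrhizin against ursodeoxycholic acid 19 were higher (49.6%), with 2 all above (5.76%) and 2 all below (5.81%). For silymarin against ursodeoxycholic acid 22 were higher (50% of all genes), with 4 all above (6.84%) and 6 all below (7.82%).

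STAT5B, a factor of growth hormone signalling in liver, had the lowest p between glycyrrhizin and silymarin. It lay at 8.35, 9.07 and 8.32 with glycyrrhizin, against 9.36, 9.57 and 9.19 with silymarin, while ursodeoxycholic acid arrays lay at 9.16, 9 and 8.73 and control arrays at 8.86, 8.93 and 9.24. The glycyrrhizin and silymarin arrays did not overlap each other, while both overlapped control (difference −0.8, SE 0.25, 95% interval −1.35 to −0.24, adjusted p = 0.311). STAT3 (0.43, SE 0.21, adjusted p = 0.57) and IRF1 (0.36, SE 0.18, adjusted p = 0.602) were measured higher with glycyrrhizin than with silymarin. With the probes of IRF1 averaged, that difference turned to −0.33.

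IFIH1, a sensor of long double-stranded RNA, lay at 8.02, 8.04 and 7.85 with silymarin, against 6.68, 7.23 and 7.67 with ursodeoxycholic acid. All silymarin arrays were above all ursodeoxycholic acid arrays, of which replicate 1 was the lowest (difference 0.77, SE 0.25, 95% interval 0.23 to 1.32, adjusted p = 0.503). OASL differed in the same direction by 0.68 (SE 0.26, adjusted p = 0.58), and GBP1 in the opposite one by −1.21 (SE 0.5, adjusted p = 0.596), or −0.69 without silymarin replicate 2. GBP1 lay at 5.71, 3.74 and 4.9 with silymarin, against 5.74, 6.25 and 6 with ursodeoxycholic acid, without overlap. Between glycyrrhizin and ursodeoxycholic acid, GBP5 differed by −1.72 (SE 0.71), GBP4 by 0.74 (SE 0.32) and IFIT3 by −0.7 (SE 0.34), each with an adjusted p of 0.882. The GBP4 difference was 0.32 without ursodeoxycholic acid replicate 3, the IFIT3 difference −0.42 without glycyrrhizin replicate 2 and the GBP5 difference −1.08 without ursodeoxycholic acid replicate 1.

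The 14 genes with an ISRE core in the promoter did not share a direction with any agent. Of the 14, 7 were higher with glycyrrhizin (median −0.03), 8 with silymarin (0.1) and 9 with ursodeoxycholic acid (0.05). Of the 18 without a match, 13 were higher with glycyrrhizin (median 0.2), 14 with silymarin (0.09) and 10 with ursodeoxycholic acid (0.06). Lack of a match is not lack of any such element. The windows of OAS1 and RIGI hold GAAA, the base C and GAAA again, a closer spacing than the search allowed. IFIT1 and MX1, which both hold the core, had silymarin differences of 0.77 and −0.01. STAT6, with none of the motifs in its window, had the lowest p of the set with glycyrrhizin and with silymarin.

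**Figure D4:**
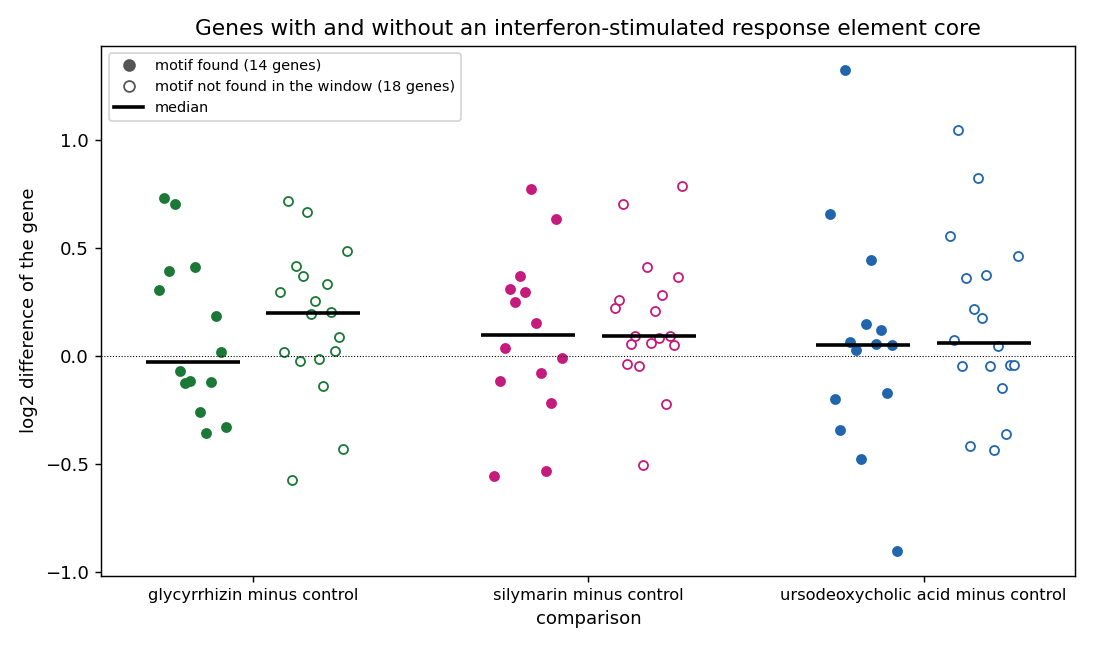
Log2 difference from control (y axis) of the 32 genes with a promoter sequence, for each agent (x axis), split into 14 genes with an ISRE core (filled) and 18 without a match (open), with medians as bars. The medians with the core are −0.03, 0.1 and 0.05 and those without it 0.2, 0.09 and 0.06.

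For 5 genes 2 probes were measured, and they did not give the same picture. The means of the probes were 12.8 and 5.08 for IRF1, 9.17 and 5.64 for STAT3, 7.14 and 5.62 for RIGI, 6.44 and 5.74 for IFI6, and 5.44 and 3.37 for GBP1. STAT3 lay below control on both probes with silymarin (−0.22 and −0.42) and with ursodeoxycholic acid (−0.15 and −0.24), and on opposite sides with glycyrrhizin (0.2 and −0.16). The probes of RIGI took opposite signs with every agent, −0.14 and 0.58, 0.08 and −0.49, and −0.44 and 0.64, with SEs of 0.49 and 0.57. IFI6, a small protein of mitochondria and endoplasmic reticulum, had the same sign on both probes with every agent, within 0.37 of 0. GBP1 had opposite signs with glycyrrhizin (0.31 and −0.37) and ursodeoxycholic acid (0.66 and −0.46), and lay below control on both probes with silymarin (−0.56 and −1.02), with SEs of 0.5 and 1.06.

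**Figure D5:**
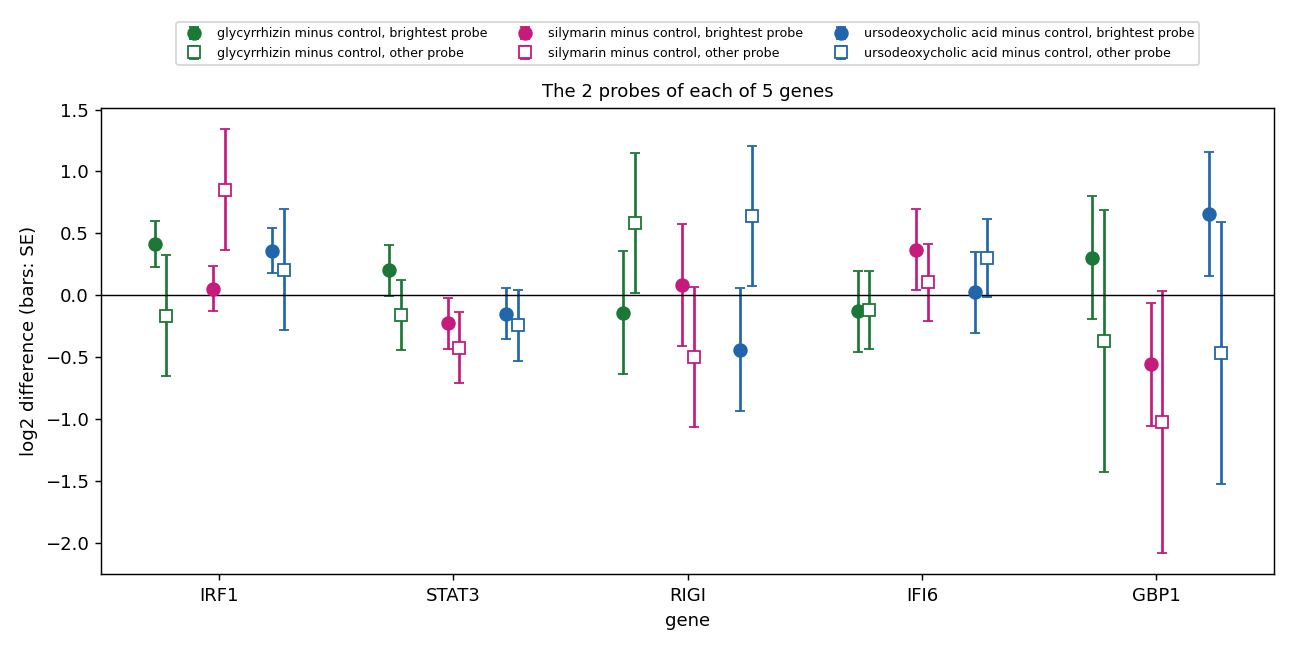
Log2 difference from control (y axis) on the brightest (filled circles) and the other probe (open squares) of 5 genes (x axis), with SE bars, for each agent in colour. The probes of IFI6 agree in sign for each agent, and those of RIGI oppose each other for each agent.

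The rest of the pathway was read from a list of genes outside the name pattern. Of 20 interferon genes 8 were measured, at means of 4.62 (IFNA2) to 7.28 (IFNA14), and of 6 receptor genes 4, with IFNAR1 at 9.91 and IFNGR1 at 4.35. The 3 Janus kinases that relay interferon signals, 12 genes of sensing and induction, 7 inhibitors such as SOCS1 and USP18, and 26 further interferon-stimulated genes were measured as well. Across all these lists 0 genes passed in either direction with any agent. With silymarin the kinases TYK2 (0.7, SE 0.23, adjusted p = 0.93) and JAK2 (0.96, SE 0.33, adjusted p = 0.946) had the lowest p-values, followed by SP110 (1.43, SE 0.67), a nuclear body protein. SP110 was dim, at a mean level of 4.17, and differed by 1.28 with glycyrrhizin and 1.43 with ursodeoxycholic acid. These 3 comparisons share the control arrays.

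With glycyrrhizin the lowest p-values of these lists belonged to the adaptor MYD88 (0.7, SE 0.26, adjusted p = 0.809), EPSTI1 (−1.11, SE 0.49) and the antibody receptor TRIM21 (1.28, SE 0.57, at a mean level of 4.46). With ursodeoxycholic acid they belonged to JAK2 (0.84, SE 0.33, adjusted p = 0.925), SOCS3 (0.48, SE 0.21), the feedback inhibitor of cytokine receptors, and the kinase TBK1 (0.61, SE 0.27), which phosphorylates IRF3. Of the 26 further interferon-stimulated genes 15 were higher with glycyrrhizin, 16 with silymarin and 15 with ursodeoxycholic acid, with median differences of 0.05, 0.12 and 0.1. Interferon beta (IFNB1) differed by 0.72, −0.42 and 0.63 in that order, with an SE of 0.38 at a mean level of 4.84.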

How the data were processed

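Per the labels, 12 one-colour arrays of total RNA were read, 3 per group. The values that the authors deposited are linear intensities, 1 for each probe on each array. The submitters' processing notes name limma, and the labels give no scanner, background correction or normalization step. Sorted values of the 12 arrays differed by a median of 1.22% at equal rank, so the arrays had been brought to 1 distribution. Of 27561 probes 15650 had 1 symbol in the platform annotation, 0 several and 11911 none. Symbols were updated through RefSeq, and the probe with the highest mean log2 intensity stood for a gene. All probes were fitted in limma 3.58.1 (R 4.3.3, lmFit and eBayes, log2 intensity, 1 mean per group over 12 arrays, 8 residual and 2.8 prior degrees of freedom), with two-sided p-values adjusted over 13881 genes (Benjamini-Hochberg, threshold 0.05). No filter on low values was used, so all 38 genes were tested. The fit was tested on simulated data. Alternatives were a replicate block, another normalization, filters on dim probes, averaged probes, an offset, a variance trend, fits on 2 groups and leaving out each array. Genes and lists were chosen with earlier results of these data known. Array values, of the groups compared at least, are given for the 3 genes with the lowest p in a comparison and for known markers of the response, and for other pathway genes the 3 lowest p-values per agent are named. Genes named for levels, absent overlap or family extremes (such as IFI44, IFI16, IRF7, IRF8, RIGI and IFNB1) and the second probes were named after their values were seen.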

Additional observations from a re-analysis of the deposited data

How the results depend on the processing

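Under every alternative run, 0 of the 38 genes passed in any of the 6 comparisons, so that count did not depend on the settings tried. With the replicate number as a block, 0 genes of the whole array passed between glycyrrhizin and silymarin and 0 between silymarin and ursodeoxycholic acid, as in fits on 2 groups only (0 and 0); the block changed no other call. Arrays with the same number in different groups had residual correlations of −0.19 to 0.15 (median 0.02), and those with other numbers −0.23 to 0.27 (median −0.01). The ranges were similar, so no pairing by number was seen. Whether some arrays shared a culture or a batch was not tested, and the labels do not say. Counts over all genes moved with the treatment of dim probes and of variance. For glycyrrhizin, silymarin and ursodeoxycholic acid against control 2, 1 and 2 genes passed without the dimmest 25%, 4, 2 and 3 without the dimmest 50%, and 17, 4 and 6 with the variance trend. With an offset of 16, 2 genes passed for glycyrrhizin and 1 for silymarin, and with averaged probes 1 for glycyrrhizin. Glycyrrhizin against silymarin gave 18, 143, 202 and 18 genes without the dimmest 25%, without the dimmest 50%, with the trend and with the offset, and silymarin against ursodeoxycholic acid gave 16 with the trend. A fit on the gene probes alone, chosen after seeing the data, gave 1 gene for glycyrrhizin against control and 7 for silymarin against ursodeoxycholic acid. Leaving out 1 array gave 0 to 1 genes for glycyrrhizin against silymarin, 0 to 2 for ursodeoxycholic acid against control (2 without its replicate 3) and 0 to 28 for silymarin against ursodeoxycholic acid (28 without ursodeoxycholic acid replicate 3). The cause was not tested.

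The median over the genes was 0.017 and 0.023 for glycyrrhizin without the dimmest 25% and 50%, and −0.045 for ursodeoxycholic acid without the dimmest 50%. Without 1 array it ran from 0.011 to 0.18 with glycyrrhizin (lowest without control replicate 3), 0.1 to 0.19 with silymarin, and −0.036 (without control replicate 1) to 0.148 (without ursodeoxycholic acid replicate 3) with ursodeoxycholic acid. The sign was the same under all alternatives for 16 of 38 genes with glycyrrhizin, 19 with silymarin and 18 with ursodeoxycholic acid, STAT6 among them each time. With averaged probes IRF1 differed by −0.33 between glycyrrhizin and silymarin. Other signs turned when 1 array was left out. With glycyrrhizin IFIT3 then ran from −0.425 to 0.022 (the last without glycyrrhizin replicate 2), IFITM1 from −0.707 to 0.017 (the last without glycyrrhizin replicate 3), OAS1 from −0.109 to 0.079 and IRF9 from −0.062 (without control replicate 3) to 0.339. With silymarin IRF1 ran from −0.038 to 0.113, IFITM1 from −0.419 to 0.166, ISG15 from −0.671 to 0.355 and MX1 from −0.153 to 0.179, while IRF9 (0.159 to 0.559) and OAS1 (0.096 to 0.276) kept their sign. With ursodeoxycholic acid IFIT1 ran from −0.015 to 0.341, IFITM1 from −0.286 to 0.342, OAS1 from −0.375 to 0.168 and IRF9 from −0.081 to 0.412. No signal-over-background value was given, and without the dimmest 50% of genes 0 of the remaining genes of the set passed.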

Other observations

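Under their current symbols IFI27L1 and IFI27L2, relatives of the interferon-induced gene IFI27, also match the name pattern, and they carry older symbols on the platform. IFI27L1 averaged 6.72 ± 0.67 with silymarin and 7.4 ± 0.17 in control (SD, n = 3 each), a log2 difference of −0.68 with an adjusted p of 0.977 in limma. IFI27L2 took the other direction, at 6.97 ± 0.5 with silymarin and 6.43 ± 0.2 in control (0.54, adjusted p = 0.977).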
